A study of Mus musculus with 4 samples.

Results

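The cells described here were C1q-positive cells of mouse back skin that were low for Folr2, Lyve1 and Cd163, 3 genes of resident dermal macrophages. They were chosen by their own raw UMI counts, where a UMI (unique molecular identifier) stands for a captured transcript. A barcode was taken with at least 10 UMIs over C1qa, C1qb and C1qc, at most 4 over Folr2, Lyve1 and Cd163, none of Cd3e, Cd3d and Cd3g, and less than 1% of its UMIs in Col1a1, Col1a2, Col3a1 and Dcn. Of 28607 barcodes that passed the limits of 500 genes, 1000 UMIs and 10% mitochondrial UMIs in 4 libraries, 874 met this rule. They were 201 of 7212 barcodes in treated WT skin, 187 of 6682 in treated Cd226-/- skin, 480 of 3513 in naive CD45+ skin and 6 of 11200 in naive CD45- skin. The first 3 libraries, with 868 such cells, are described.

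All mice were on the BALB/c background, and each library was made with the 10x Genomics 3′ v3.1 kit from cells stained with antibody tags for CD45 and DNAM-1. Treated WT and Cd226-/- skin had received 25 µg of DMBA, a carcinogen, followed by 3 weekly applications of 5 µg of TPA, a tumour promoter. Cd226-/- mice lack DNAM-1, an activating receptor of T and natural killer cells. Cells were isolated 3 weeks after treatment from 3 pooled mice per genotype, and the sorted CD45+ and CD45- fractions were combined in equal parts. The naive CD45+ library held sorted CD45+ cells only and combined cells of WT and Cd226-/- mice that had received neither agent, so it has no genotype of its own. Each group was 1 library. No difference between groups therefore has a replicate check, no test between them was possible, and every interval below is a 95% interval for counting error only.

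The 4 libraries held 5913 to 11875 barcodes and 42043869 to 81406730 gene UMIs. Between 9 and 21 barcodes were shared by a pair of libraries, and none of them was a member. Cd226 itself had 9 UMIs in WT members, 4 in Cd226-/- members and 9 in naive members, which is too few to check the genotype, and the deleted part of the gene is not given in the sources used here. The DNAM-1 tag had a median of 22 UMIs per member in WT, 3 in Cd226-/- and 12 in naive skin. It followed the same order in collagen-gene cells (at least 5% of UMIs in the 4 collagen and Dcn genes of the rule), with medians of 16, 2 and 10.

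C1q is the recognition part of the classical complement pathway, and in skin most of its transcripts come from macrophages. Macrophages are known for taking up dying cells and lipid, and those of the dermis can present antigen to CD4 T cells on MHC class II molecules. Lipid-loaded macrophages carry a known programme led by the receptor Trem2 and the lipid carrier Apoe, while type I interferons and IFN-γ switch on partly overlapping sets of antiviral and antigen-presenting genes.

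Among C1q cells, 201 of 426 in WT skin (47.2%, exact binomial interval 42.4 to 52.0%), 187 of 476 in Cd226-/- skin (39.3%, 34.9 to 43.8%) and 480 of 1485 in naive skin (32.3%, 29.9 to 34.8%) were low for Folr2, Lyve1 and Cd163. The rest carried more than 4 UMIs of these genes and are called resident-type below. Against all barcodes kept the members were 2.79%, 2.80% and 13.7%, but the treated libraries held the mixed sort and the naive library CD45+ cells only. Many cells lay near the limits. Members with exactly 4 UMIs of the 3 genes numbered 9 in WT, 19 in Cd226-/- and 54 in naive skin, and cells with 5 such UMIs, just outside, numbered 7, 17 and 62. Cells with 10 to 14 C1q UMIs numbered 24, 26 and 35, and those with 5 to 9, just outside, 27, 30 and 49. C1q UMIs also reached 10 in 2.28% of WT, 1.45% of Cd226-/- and 5.52% of naive neutrophil-gene cells (at least 50 UMIs of S100a8 and S100a9) and in 0.902%, 0.527% and 2.60% of collagen-gene cells, cell types that should lack them. Median depths were 6499, 7495 and 7939 UMIs in members, against 12636.5, 14422 and 16585 in collagen-gene cells.

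The label of C1q macrophages held for most naive members and went against the data for a large part of the treated ones. Of 7 genes that mark Langerhans or dendritic cells (Cd207, Epcam, Ccr7, Flt3, Zbtb46, Xcr1 and Clec9a), at least 1 UMI was present in 82 of 201 WT members (40.8%, 33.9 to 47.9%), 77 of 187 Cd226-/- members (41.2%, 34.0 to 48.6%) and 35 of 480 naive members (7.29%). These marker-positive cells were deep, with medians of 9153, 9630 and 16746 UMIs, and held 59.6%, 54.0% and 14.5% of all members' UMIs. Mfge8, a secreted bridge between dying cells and phagocytes, was high in most treated marker-positive cells and in no naive ones. At least 5 Mfge8 UMIs were found in 69 WT members, 67 Cd226-/- members and 0 naive members, which for 480 cells allows a share of up to 0.766% by the exact interval, and all 136 of these cells were marker-positive. They were 69 of the 82 WT, 67 of the 77 Cd226-/- and 0 of the 35 naive marker-positive cells. Levels are given as CPM, the UMIs of a gene per 1000000 gene UMIs summed over the cells of a group. Over all members Mfge8 stood at 3426 CPM in WT, 4480 in Cd226-/- and 14.4 in naive skin. Cd207, the langerin receptor of Langerhans cells, stood at 721, 465 and 11.2, and Epcam, an adhesion molecule of the same cells, at 195, 237 and 7.53. Ccr7, the receptor that guides dendritic cells to lymph nodes, stood at 429, 263 and 6.62. All 4 genes were far higher in the summed members of both treated libraries than in the naive ones.

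**Figure D1:**
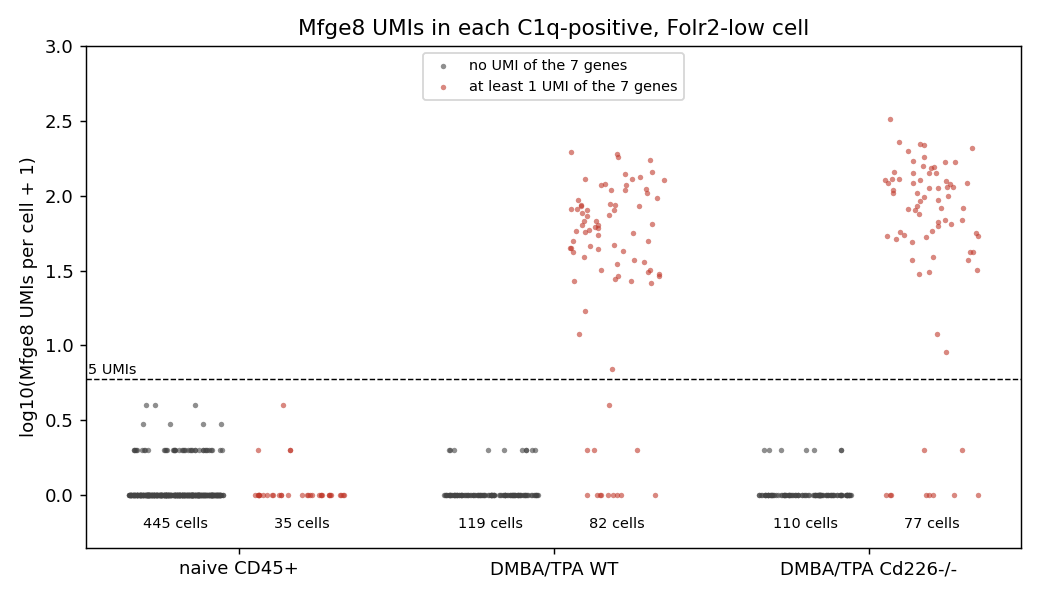
Mfge8 UMIs in each member (log10 of the count plus 1, vertical axis) by library, with cells that have at least 1 UMI of the 7 Langerhans or dendritic genes in red and the others in grey. The 69 WT and 67 Cd226-/- cells above the dashed line at 5 UMIs are all red, and no naive cell lies above it.

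Members without any of the 7 genes, called marker-free below, numbered 119 in WT, 110 in Cd226-/- and 445 in naive skin. At least 1 UMI of Adgre1, Ms4a7, Cx3cr1, Fcgr1, Mertk or Trem2, all macrophage genes, was present in 89.9% of marker-free WT, 97.3% of Cd226-/- and 98.2% of naive cells, but in 56.1%, 54.5% and 97.1% of marker-positive cells. A UMI of Ccr2 or Ly6c2, monocyte genes, was present in 37.8% of WT, 27.3% of Cd226-/- and 88.6% of naive marker-positive cells. The naive marker-positive cells thus differed from the treated ones in both, and the 3 groups are not cells of a like kind. The 3 C1q genes also stood in other proportions. In marker-free WT cells C1qa, C1qb and C1qc had 3745, 3217 and 2073 CPM, and in marker-positive WT cells 2755, 1014 and 699. Other cells with the 7-gene marks and at least 5 Mfge8 UMIs but fewer than 10 C1q UMIs, 98 in WT and 190 in Cd226-/- skin, had 80.4 and 77.4 for C1qa and 5.66 and 12.0 for C1qb. Members were 38.8% of such Mfge8-high cells in WT (31.6 to 46.3%) and 25.2% in Cd226-/- skin (20.1 to 30.9%). Whether the marker-positive members are Langerhans cells that hold C1q transcripts, droplets with 2 cells, or cells with free C1q RNA was not tested, and a doublet caller (Scrublet) marked only 1 WT, 3 Cd226-/- and 0 naive members. In the naive library it marked 0.256% of barcodes, too few to rely on. Without the marker-positive cells, 38.5% of C1q cells in WT, 31.5% in Cd226-/- and 34.0% in naive skin were low for Folr2, Lyve1 and Cd163, so Cd226-/- then lay below naive. The counts for class II, class I, the lipid-associated signature, the lysosome and both interferon responses are given below with and without the marker-positive cells, a split made after these data had been seen. Other lists are described in marker-free cells, with their counts over all members beside them.

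The marker genes given for these cells followed the split. C1qa stood at 3155 CPM over all WT members, 2933 over Cd226-/- and 3554 over naive members, and C1qb at 1904, 1722 and 2701. H2-Aa, an MHC class II chain, stood at 12202, 13163 and 7816. Trem2, a lipid-sensing receptor, stood at 64.8 [52.5 to 79.1], 142 [123 to 162] and 514 [493 to 535]. Treated members were thus high for H2-Aa and low for Trem2 beside naive ones. Among marker-free cells H2-Aa stood at 7863, 6764 and 7450, so Cd226-/- lay below naive there, while Trem2 kept its order with 120, 257 and 554. After thinning every cell to 2000 UMIs, which left out 14 WT, 4 Cd226-/- and 21 naive marker-free cells, Trem2 was seen in 20%, 32.1% and 51.2% of them (30.3%, 57.3% and 74.6% before thinning) and in 0.109%, 0.215% and 1.30% of collagen-gene cells, which should lack it. Trem2 lies on chromosome 17 (GRCm38, GENCODE annotation, chr17:48346401-48354147, plus strand) and H2-Aa on the same chromosome (chr17:34282744-34287823, minus strand).

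Changes between libraries are given below as ratios of summed CPM. A gene with at least 50 UMIs over both libraries was counted as higher or lower where this ratio passed 1.5-fold. WT and Cd226-/- members are both set against the same naive library, so their values against it share that library and are only shown side by side.

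For MHC class II presentation (11 genes, 8 with enough UMIs), 6 genes were higher in WT than in naive members and none lower (median log2 ratio 0.64), beside 12.9% of all 7734 genes higher and 17.7% lower (median −0.03). In Cd226-/- against naive members 5 of 8 were higher and none lower (median 0.67), beside 12.8% and 17.5% of 7758 genes (median −0.03). Cd226-/- against WT gave 0 higher and 1 lower of 8 (Ciita, the class II transactivator; median 0.03), beside 4% and 4.27% of 5830 genes (median 0.01). Among marker-free cells the class II gain was not seen. There WT against naive gave 0 of 8 in either direction (median 0.12), beside 11.4% higher and 17.3% lower of 6909 genes (median −0.03). Marker-free Cd226-/- against naive cells gave 0 higher and 1 lower (Ciita, median 0.01), beside 11.7% and 15.9% of 6991 genes (median −0.01). Marker-free Cd226-/- against WT cells gave 0 of 8 in either direction (median −0.26), beside 5.67% and 5.11% of 3402 genes (median 0.03).

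Class II transcripts as a whole made up 31877 CPM in naive members, 51008 in WT and 52463 in Cd226-/-. In marker-positive cells the sums were 41672, 61248 and 72817, and in marker-free cells 30218, 35899 and 28600. Cd74, the invariant chain that escorts class II molecules, stood at 12926 in naive, 15628 in WT and 11908 in Cd226-/- marker-free cells, 1.31-fold (1.27 to 1.35) higher in WT than in Cd226-/-. H2-Eb1, a class II β chain, stood at 4222, 5750 and 4345, 1.32-fold (1.26 to 1.39) higher in WT than in Cd226-/-. H2-Ab1, the β chain that pairs with H2-Aa, stood at 4425, 5399 and 4381. These class II genes were highest in WT marker-free cells, by less than 1.5-fold. Ciita stood at 81.7, 65.2 and 46.1 and was 1.77-fold (1.23 to 2.62) higher in naive than in Cd226-/- marker-free cells. Cells varied widely. Per 10000 UMIs of a cell, class II UMIs had a median of 295 in naive marker-free cells (10th to 90th percentile 6.91 to 636), 406 in WT (145 to 656) and 276 in Cd226-/- (12.98 to 638). The low tail of class II-poor cells was thus present in naive and Cd226-/- and thin in WT skin. In marker-positive cells the medians were 420, 695 and 848.

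**Figure D2:**
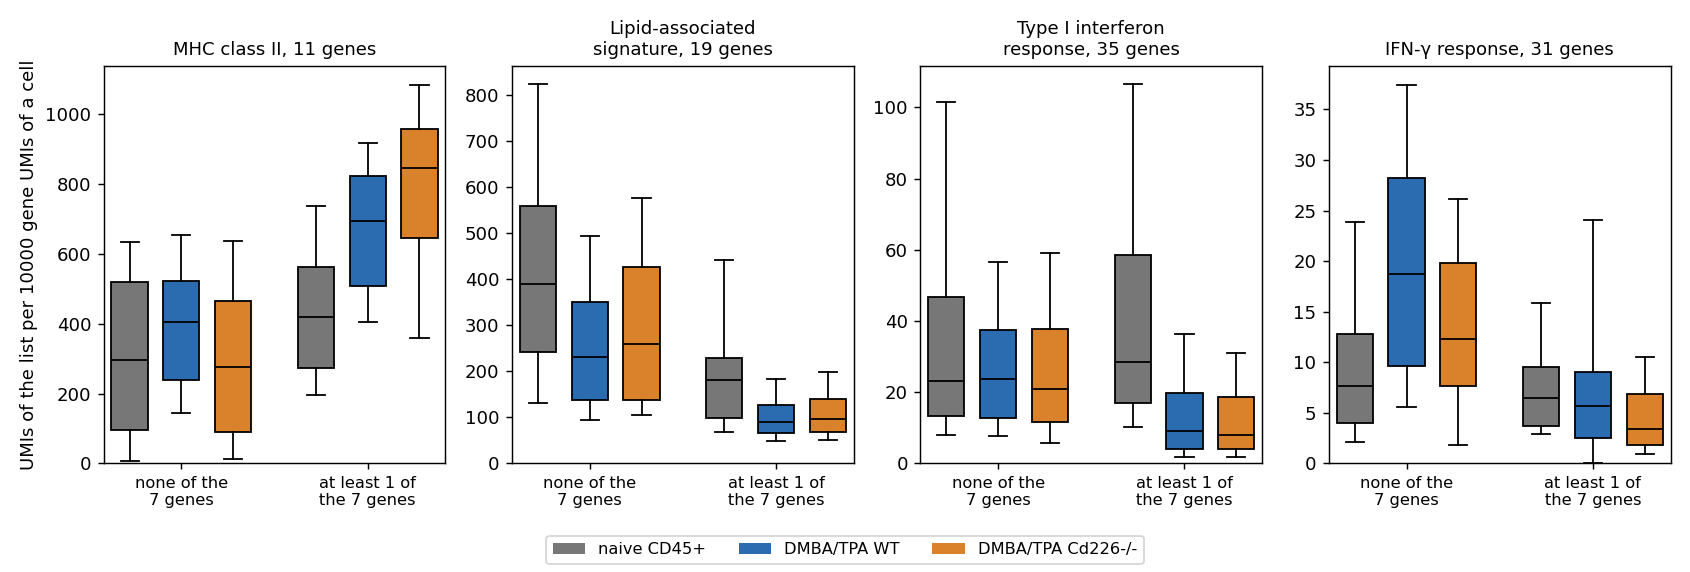
UMIs of 4 gene lists per 10000 gene UMIs of a cell (vertical axes), by library, for members without and with a UMI of the 7 Langerhans or dendritic genes; boxes span the quartiles with the median, and whiskers the 10th to 90th percentile. Class II is highest in treated marker-positive cells, the lipid-associated signature is highest in naive marker-free cells (median 389), and type I interferon genes differ between marker-free groups mainly in the upper whisker.

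Class II promoters are known for a conserved block whose last box is CCAAT, bound by NF-Y. In the 250 bases before the start of 8 class II genes matched in the RefSeq table, CCAAT was found on either strand in 8 of 8, against 37.5% of all 27025 symbols. H2-Ab1 and Ciita were not among the matched genes. To show where the box sits in genes that differed between the libraries, the stretch around it is printed for H2-Aa (chr17:34287837-34287901, minus strand) and H2-Eb1 (chr17:34305778-34305866, plus strand) from RefSeq on GRCm38.p6, 5′ to 3′ on the gene's strand, with CCAAT or its reverse complement in capitals. A match describes the letters and not a bound site.
H2-Aa: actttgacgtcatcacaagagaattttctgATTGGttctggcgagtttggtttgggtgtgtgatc
H2-Eb1: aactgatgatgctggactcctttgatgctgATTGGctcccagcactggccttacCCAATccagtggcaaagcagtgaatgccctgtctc

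For MHC class I processing, of 23 genes 6 were higher in WT than in naive members and 0 lower (median log2 ratio 0.15), beside 12.9% and 17.7% of all genes. Over the same members 4 were higher and 1 lower in Cd226-/- than in naive members (0.13), and 0 of 22 passed the fold between the genotypes (−0.12). Marker-free cells gave 3 of 22 higher in WT (Tap1, Tapbpl and Calr, median 0.37) and 2 of 22 in Cd226-/- (Tapbpl and Calr, 0.28) than in naive cells, with 0 lower in both, beside 11.4% and 11.7% of all genes higher. Between the genotypes 0 of 19 passed the fold there (−0.11). B2m, the class I light chain, stood at 3077 CPM in naive, 2932 in WT and 2476 in Cd226-/- marker-free cells. Calr, a chaperone that loads class I, stood at 687, 1154 and 1109, which was 1.68-fold (1.54 to 1.83) and 1.61-fold (1.49 to 1.75) above naive. Tap1, a subunit of the peptide transporter, stood at 65.4, 115 and 81.1, 1.76-fold (1.33 to 2.31) higher in WT than in naive cells. Among costimulatory and checkpoint ligands, marker-free cells had 2 of 11 genes higher (Cd80 and Cd274) and 3 lower (Cd83, Icosl and Cd48) in WT than in naive skin (median −0.05), and the same 5 with Cd40 also lower in Cd226-/- (−0.51). Over all members 5 of 12 were higher and 4 lower in WT (0.30), and 5 higher and 5 lower in Cd226-/- (−0.14). Of all genes in marker-free cells, 11.4% were higher and 17.3% lower in WT, and 11.7% and 15.9% in Cd226-/-. Over all members the shares were 12.9% and 17.7%, and 12.8% and 17.5%. Cd274, which encodes the checkpoint ligand PD-L1, stood at 17.6, 45.1 and 46.1, so both treated libraries were above naive. Cd83, a marker of activated antigen-presenting cells, stood at 702, 396 and 401, and both treated libraries were below naive. Cd86, a ligand of CD28, stood at 94.2, 119 and 131 in marker-free cells but at 70.9, 451 and 464 in marker-positive ones.

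The lipid-associated macrophage signature (19 genes, 18 with enough UMIs) had a lower sum in both treated libraries than in naive skin with and without the marker-positive cells. Its summed level in marker-free cells was 41866 CPM in naive, 24457 in WT and 28062 in Cd226-/- skin, and in marker-positive cells 20574, 11232 and 12108. Apoe, whose level is given below, made up most of each marker-free sum. In both treated libraries its fall from naive was about as large as that of the sum. The marker-free sums and the medians per cell given below thus lean on this gene, while the counts weigh each gene the same. WT against naive gave 6 genes higher and 10 lower over all members (median log2 ratio −0.77), beside 12.9% and 17.7% of all genes. In marker-free cells it gave 4 higher and 10 lower (−0.74), beside 11.4% and 17.3%. Cd226-/- against naive gave 6 higher and 10 lower (−0.69), beside 12.8% and 17.5%. In marker-free cells it gave 3 higher and 7 lower (−0.23), beside 11.7% and 15.9%. Cd226-/- against WT gave 5 higher and 3 lower of 18 (0.25), beside 4% and 4.27%. Marker-free cells gave 6 higher and 2 lower of 17 (0.18), beside 5.67% and 5.11%. The 6 higher genes were Trem2, Gpnmb, Fabp5, Cd9, Lpl and Ctsd, and the 2 lower ones Fabp4 and Mmp12. Per 10000 UMIs of a cell the median was 389 in naive, 231 in WT and 259 in Cd226-/- marker-free cells. These differences moved with a UMI of Ccr2 or Ly6c2. In marker-free cells without one, 145 in naive, 35 in WT and 34 in Cd226-/- skin, the sums were 54800, 39041 and 53175 and the medians 436, 307 and 425, so Cd226-/- lay close to naive and WT below both. In cells with one the sums were 37769, 20915 and 20404 and the medians 347, 206 and 193, so both treated libraries were below naive and Cd226-/- was not above WT. Cells without such a UMI were also shallower, with medians of 5712, 2867 and 4570.5 UMIs in naive, WT and Cd226-/- skin. Those with one had 8551, 4522.5 and 6096.5. Over marker-free cells the signature per 10000 UMIs had a Spearman correlation with depth of −0.07, −0.18 and −0.36. The part of this split and of depth in the results was not tested.

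Among lipid receptors, Trem2 was 4.604-fold (3.64 to 5.91) higher in naive than in WT marker-free cells, 2.15-fold (1.85 to 2.52) higher than in Cd226-/-, and 2.14-fold (1.62 to 2.85) higher in Cd226-/- than in WT. Cd36, which takes up oxidised lipoproteins, stood at 285 CPM in naive, 124 in WT and 101 in Cd226-/- cells. Msr1, scavenger receptor A, went the other way with 176, 436 and 334. Of 11 uptake and sensing genes, 2 were higher, Msr1 among them, and 4 lower (Trem2, Cd36, Axl and Mertk) in WT than in naive marker-free cells (median −0.37). In Cd226-/- 2 were higher, again with Msr1 among them, and Trem2, Cd36 and Axl were lower (−0.27), and Trem2 was the 1 of 7 that was higher in Cd226-/- than in WT (0.11). Axl, a receptor for dying cells, stood at 121, 23.4 and 29.4. Over all members 1 of 11 was higher and 6 lower in WT (−0.70) and in Cd226-/- (−0.69). Of all genes in marker-free cells, 11.4% were higher and 17.3% lower in WT, and 11.7% and 15.9% in Cd226-/-. Over all members the shares were 12.9% and 17.7%, and 12.8% and 17.5%. Between the genotypes 5.67% of all genes were higher in marker-free Cd226-/- cells.

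Of 9 lipid carrier and droplet genes, Fabp4 and Fabp5 were higher and Apoe, Lpl and Pltp lower than in naive marker-free cells in both WT (median −0.27) and Cd226-/- (−0.39). Over all members 2 of 10 were higher and 4 lower in WT (−0.45) and in Cd226-/- (−0.24). Of all genes in marker-free cells, 11.4% were higher and 17.3% lower in WT, and 11.7% and 15.9% in Cd226-/-. Over all members the shares were 12.9% and 17.7%, and 12.8% and 17.5%. Apoe, the main lipoprotein of macrophages, stood at 29324.5 CPM in naive, 13485 in WT and 15024 in Cd226-/- marker-free cells, 2.17-fold (2.13 to 2.22) higher in naive than in WT. Lpl, which frees fatty acids from lipoproteins, stood at 787 [758 to 815], 85.2 [63.4 to 112] and 240 [206 to 279], with 292 of the 2946 naive UMIs in 1 cell. It was 9.23-fold (7.003 to 12.4) higher in naive than in WT cells, 11.5-fold once the cell with most Lpl was dropped from both, and 2.82-fold (2.05 to 3.94) higher in Cd226-/- than in WT. Lpl and Gpnmb are also genes of collagen-gene cells, where Lpl was seen in 61.0%, 54.3% and 56.2% of thinned naive, WT and Cd226-/- cells against 38.0%, 8.57% and 8.49% of marker-free members. At equal depth the share of members with Lpl was thus about the same in WT and Cd226-/-, although its summed level was higher in Cd226-/-. Summed fibroblast markers in marker-free cells were 56, 284 and 180 CPM in naive, WT and Cd226-/- skin, and their part in these values was not tested. Pltp, a phospholipid transfer protein, stood at 1225, 489 and 435. Fabp5, a fatty acid-binding protein, had the opposite order to Apoe with 282, 747 and 1908, and was 2.56-fold (2.29 to 2.85) higher in Cd226-/- than in WT, 2.17-fold without the richest cells. It was seen in 17.0%, 26.7% and 39.6% of thinned cells against 0 to 4.35% of collagen-gene cells. Summed keratinocyte markers in marker-free cells had the same order, with 5, 17 and 46 CPM, and their part in Fabp5 was not tested. Fabp4, another such protein, rests on 1 cell in WT, which held 154 of 177 UMIs. Its levels of 27.8, 296 and 78.3 gave a WT to Cd226-/- ratio of 3.78 with that cell and 0.743 once the top cell of both libraries was dropped.

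In the lysosome, 9 of 18 genes were lower in WT than in naive marker-free cells (median −0.63) and 5 of 18 in Cd226-/- (Lipa, Npc1, Grn and Atp6v0d2 among them, −0.33), with 0 higher in both, against 13 and 12 lower over all members (−1.10 and −0.81), beside 15.9% to 17.7% of all genes lower in these comparisons. In marker-free cells the list summed to 11011 CPM in naive, 8789 in WT and 9841 in Cd226-/- skin. Without the cells that had a Ccr2 or Ly6c2 UMI, which were the deeper ones, the sums were 12164, 10301 and 13837, so Cd226-/- lay above naive. In those with one they were 10646, 8422 and 8622. Between the genotypes 3 of 15 were higher and 1 lower in Cd226-/- marker-free cells (0.12), beside 5.67% and 5.11% of all genes. Ctsd and Gpnmb were among the higher ones, and Npc1 was the lower one. Ctsd, cathepsin D, stood at 1242 CPM in naive, 610 in WT and 1083 in Cd226-/- cells, so WT alone was low, and the ratio of Cd226-/- to WT was 1.78 (1.57 to 2.02). Lipa, the acid lipase that frees cholesterol, stood at 229, 88.5 and 79.7, with both treated libraries low. Gpnmb, a glycoprotein of lipid-loaded macrophages, stood at 110, 26.7 and 92.3, but 47 of its 66 Cd226-/- UMIs came from 1 cell. Its ratio of Cd226-/- to WT was 3.45 (1.98 to 6.39) with the richest cells and 1.77 without them.

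Cholesterol export genes were counted lower and synthesis genes higher than in naive skin. Of 8 efflux and nuclear receptor genes, 4 were lower in WT than in naive marker-free cells (Abca1, Abcg1, Nr1h3 and Pparg, median −0.57) and these with Mylip in Cd226-/- (−0.79), with none higher, beside 17.3% and 15.9% of all genes lower. Over all members 5 of 8 were lower and 0 higher in WT (−1.11) and in Cd226-/- (−0.96). Abca1, the pump that loads cholesterol on apolipoprotein A-I, stood at 256 CPM in naive, 165 in WT and 162 in Cd226-/- cells. Abcg1, its partner for high-density lipoprotein, stood at 159, 86.9 and 57.3. For sterol synthesis, 4 of 8 genes were higher in WT (Srebf2, Fdps and Cyp51 among them, 0.54) and 8 of 9 in Cd226-/- (1.19) than in naive cells, with 0 lower in both, beside 11.4% and 11.7% of all genes higher. Over all members 7 of 10 were higher in WT (1.10) and 9 in Cd226-/- (1.12), again with 0 lower. Against WT, 2 of 5 were higher in Cd226-/- (0.58), beside 5.67% of all genes. These were Insig1, a sterol sensor partner, at 29.4, 25.1 and 69.9, and Fdps, a synthase of the pathway, at 15.8, 26.7 and 58.7. Their WT values rest on 15 and 16 UMIs.

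**Figure D3:**
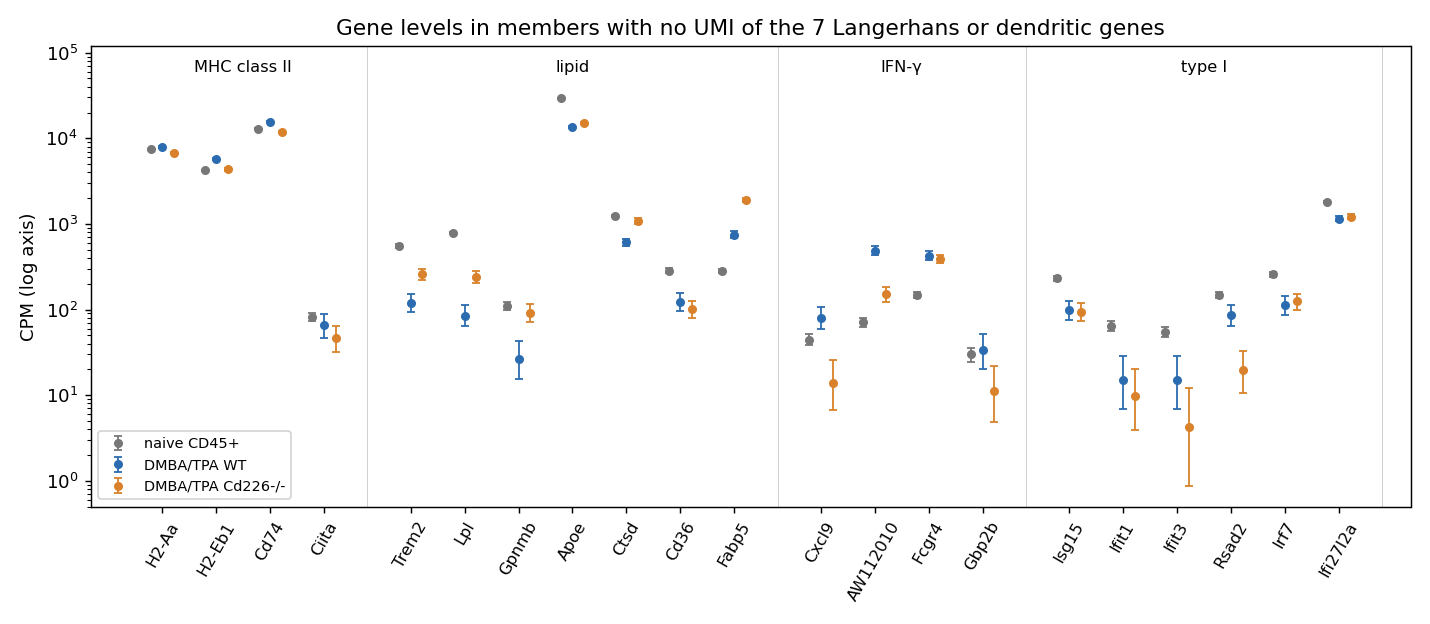
Summed CPM (log axis) of genes of the antigen presentation, lipid and interferon programmes in marker-free members of each library; bars are exact Poisson 95% intervals for counting error. Trem2, Lpl and Apoe are highest in naive cells, Fabp5 in Cd226-/- cells, and Cxcl9 and AW112010 in WT cells.

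In the IFN-γ response, 7 of 15 genes were lower and 0 higher in Cd226-/- than in WT over all members (median log2 ratio −0.51), beside 4.27% of all genes lower. In marker-free cells 2 of 9 were lower and 0 higher (−0.13), beside 5.11%. In marker-positive cells 4 of 8 were lower and 0 higher (−0.59), beside 238 lower and 197 higher of all 4086 genes. Over all members the 7 were Cxcl9, Gbp2, Gbp2b, Gbp4, Socs1, Slamf8 and AW112010, and in marker-free cells the 2 were Cxcl9 and AW112010. Against naive, WT marker-free cells had 7 of 20 genes higher and 4 lower (0.16), beside 11.4% and 17.3% of all genes. Cd226-/- cells had 3 higher and 8 lower (−0.23), beside 11.7% and 15.9%. Over all members these counts were 5 higher and 6 lower of 22 in WT (0.03) and 2 higher and 14 lower in Cd226-/- (−0.83), beside the 17.7% and 17.5% of all genes that were lower. The summed level in marker-free cells was 1275 CPM in naive, 2060 in WT and 1439 in Cd226-/- skin. Most of the WT excess over naive in this sum lay in AW112010 and Fcgr4, whose levels are given below. AW112010 also held much of the WT excess over Cd226-/-. The medians per cell sum the same genes. Per 10000 UMIs of a cell the medians were 7.63, 18.7 and 12.3.

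Cxcl9, a chemokine that draws CXCR3-bearing T cells, stood at 44.6 CPM in naive, 80.2 [59.1 to 106] in WT and 13.98 [6.70 to 25.7] in Cd226-/- marker-free cells, and 149 of its 167 naive UMIs lay in 1 cell. WT was 5.74-fold (2.87 to 12.7) above Cd226-/-, and 11.7-fold once the top cell of both was dropped. In thinned cells it was seen in 0.708% of naive, 10.5% of WT and 1.89% of Cd226-/- members, against 0%, 1.20% and 0.108% of collagen-gene cells. AW112010, an interferon-induced transcript, stood at 71.0, 488 and 151, 3.23-fold (2.58 to 4.07) higher in WT than in Cd226-/-. It was also seen in 20.3% of thinned WT collagen-gene cells, 10.0% of Cd226-/- and 10.4% of naive ones, against 41.0%, 23.6% and 9.43% of members, so in naive skin members did not exceed collagen-gene cells. Fcgr4, an activating Fc receptor, stood at 148, 426 and 390, so both treated libraries were above naive, with a WT to Cd226-/- ratio of 1.09 (0.918 to 1.30). Gbp2b, a guanylate-binding protein, stood at 29.9, 33.4 and 11.2, from 8 UMIs in Cd226-/- cells, with a WT to Cd226-/- ratio of 2.99 (1.26 to 7.84). Cxcl10, a chemokine of the same receptor, stood at 146, 66.8 and 68.5 and did not share the order of Cxcl9.

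Type I interferon genes were lower in both treated libraries than in naive skin. Over all members 26 of 32 genes were lower and 0 higher in WT (median log2 ratio −1.12), and 29 of 32 lower and 0 higher in Cd226-/- (−1.27), beside 17.7% and 17.5% of all genes lower. In marker-free cells 18 were lower and 1 higher in WT (−0.67), the higher one being Dhx58, an RNA helicase of this family. In Cd226-/- 24 were lower and 0 higher (−1.06), and of all genes 17.3% and 15.9% were lower in WT and Cd226-/-. Between the genotypes, 3 of 15 genes (Rsad2, Ifi44 and Ifi209) were lower and 0 higher in Cd226-/- marker-free cells (−0.14), beside 5.11% and 5.67% of all genes. The summed level there was 4730 CPM in naive, 3091 in WT and 2747 in Cd226-/- skin. The typical cell differed little, since the median per 10000 UMIs was 23.1, 23.8 and 20.9, while the 90th percentile was 101, 56.5 and 59.0. The lower sums thus went with a shorter upper tail of cells. Cells with a Ccr2 or Ly6c2 UMI were 67.4%, 70.6% and 69.1% of marker-free cells and were the deeper ones in each library. Their summed level was 5417, 3436 and 2746, and that of the others 2563, 1667 and 2752. WT was thus below naive in both kinds of cell, and Cd226-/- was below naive in cells with such a UMI and not in the others. Without the Ccr2 or Ly6c2 cells, which left far fewer UMIs, 7 of 15 genes were lower in WT and 4 of 14 in Cd226-/- than in naive skin. The share of all genes past the fold in these cells is not given, so these counts cannot be set against it.

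Isg15, a ubiquitin-like protein attached to proteins in infected cells, stood at 231 CPM in naive, 98.6 in WT and 93.7 in Cd226-/- marker-free cells. Naive was 2.34-fold (1.80 to 3.101) and 2.46-fold (1.92 to 3.21) above them. Irf7, the factor that amplifies the type I response, stood at 258, 112 and 124. Ifit1, a sensor of foreign RNA caps, stood at 64.3, 15.035 and 9.79, and Ifit3, its partner, at 54.5, 15.035 and 4.19, the last from 3 UMIs with a naive to Cd226-/- ratio of 12.99 (4.38 to 63.5). Rsad2, the antiviral enzyme viperin, stood at 149, 86.9 and 19.6, but 35 of its 52 WT UMIs were in 1 cell, and naive was 7.60-fold (4.49 to 13.99) above Cd226-/-. All 5 genes were highest in the marker-free cells of naive skin as a whole. Among those without a Ccr2 or Ly6c2 UMI, Irf7 stood at 83.3 in naive, 94.0 in WT and 150 in Cd226-/- cells, log2 ratios to naive of 0.18 and 0.85, and Ifit3 at 17.8, 34.2 and 17.9, so these 2 genes did not keep that order. Ifi27l2a, an interferon-induced gene that is widely expressed, stood at 1789, 1153 and 1212, a smaller difference.

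Upstream of these genes, receptor and signalling genes were 2 higher (Ifnar1 and Jak2) and 2 lower (Ifnar2 and Irf8) of 11 in WT than in naive marker-free cells (median −0.0031) and 1 higher (Jak2) and 0 lower in Cd226-/- (−0.20). Of all genes in marker-free cells, 11.4% were higher and 17.3% lower in WT, and 11.7% and 15.9% in Cd226-/-. The marker-free counts of this list thus lay near or below the share of all genes. Over all members 3 of 11 were higher and 2 lower in WT (0.29), beside 12.9% and 17.7%. In Cd226-/- 1 was higher and 1 lower (−0.02), beside 12.8% and 17.5%. Jak2, a kinase of the IFN-γ receptor, stood at 22.2 CPM in naive, 51.8 in WT and 41.9 in Cd226-/- cells. Irf8, an interferon regulatory factor of myeloid cells, stood at 195, 86.9 and 133 and was 1.53-fold (1.08 to 2.19) higher in Cd226-/- than in WT.

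Type I interferon acts on promoters through the stimulated response element, whose core repeats GAAA. The motif GAAA, any 2 bases, GAAA was found on either strand within 250 bases before the start in 14 of 26 matched type I genes and 14 of 22 matched IFN-γ genes, against 3.46% of all symbols. The stretches that hold it or its reverse complement are shown, in capitals, for 4 genes that were lower in treated skin, from RefSeq on GRCm38.p6 and 5′ to 3′ on the gene's strand: Isg15 (chr4:156200845-156200926, minus), Ifit1 (chr19:34640755-34640843, plus), Ifit3 (chr19:34583343-34583446, plus) and Rsad2 (chr12:26456533-26456602, minus). Neighbouring matches overlap in Isg15.
Isg15: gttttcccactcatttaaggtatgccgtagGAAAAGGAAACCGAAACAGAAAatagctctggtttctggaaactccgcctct
Ifit1: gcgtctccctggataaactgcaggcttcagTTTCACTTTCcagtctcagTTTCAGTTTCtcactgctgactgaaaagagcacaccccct
Ifit3: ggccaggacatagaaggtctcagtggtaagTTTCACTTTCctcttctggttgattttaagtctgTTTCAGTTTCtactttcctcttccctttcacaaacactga
Rsad2: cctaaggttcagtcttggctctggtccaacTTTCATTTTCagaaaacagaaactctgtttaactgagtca

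**Figure D4:**
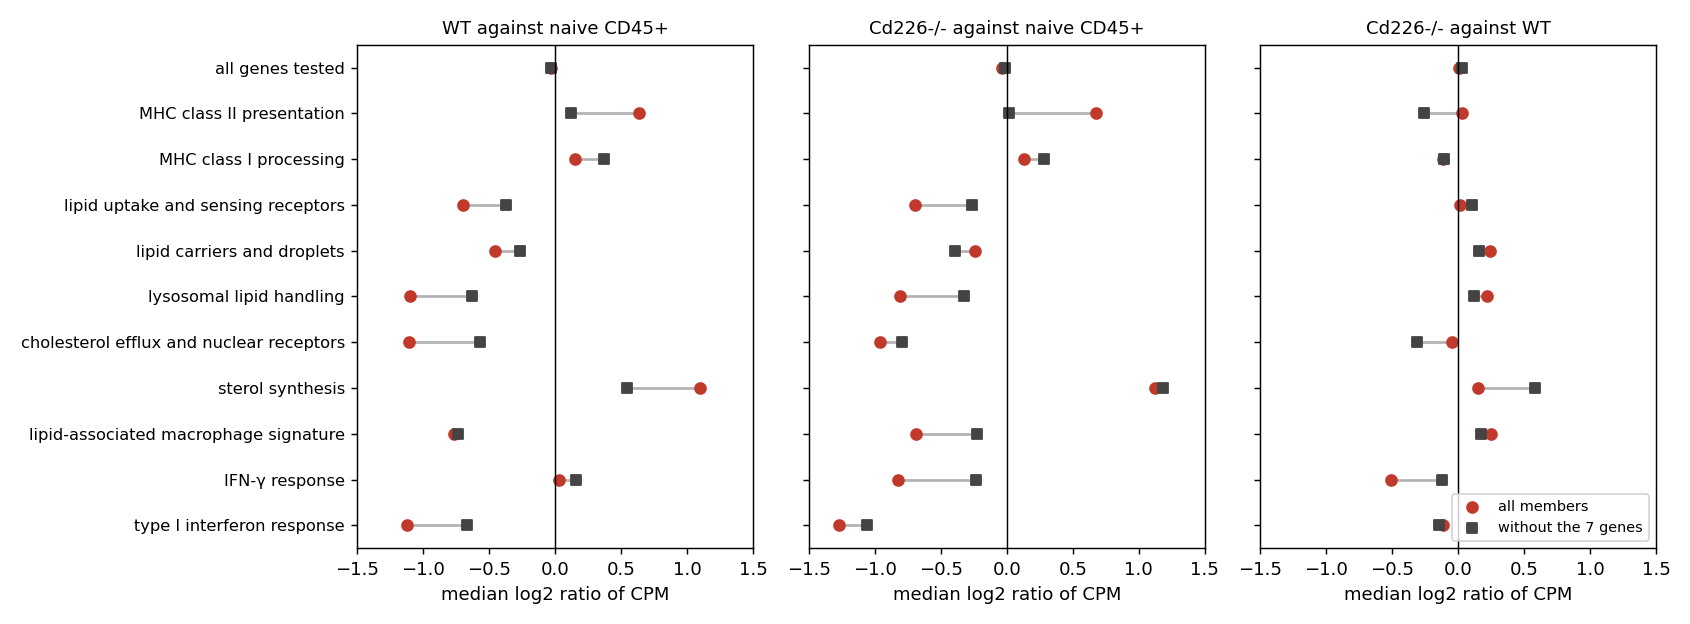
Median log2 ratio of CPM over the genes of each list with enough UMIs (horizontal axis), for all members (red circles) and marker-free members (dark squares) in the 3 comparisons. Class II lies near 0 against naive in marker-free cells, while the type I interferon, efflux and lysosomal lists lie below 0 and sterol synthesis above it in both panels against naive.

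Beyond the 3 programmes, monocyte genes were higher in treated skin, with 9 of 13 higher and 0 lower in marker-free cells of both WT (median log2 ratio 1.93) and Cd226-/- (1.92) against naive, beside 11.4% and 11.7% of all genes higher. Over all members 7 of 13 were higher and 1 lower in WT (1.13), and 8 higher and 0 lower in Cd226-/- (1.49). Macrophage identity genes were 1 higher and 6 lower of 12 in WT (−0.55) and 1 higher and 5 lower in Cd226-/- (−0.47), and over all members 8 of 12 were lower and 0 higher in both (−0.91 and −0.88). Adgre1, which encodes F4/80, stood at 450 CPM in naive, 172 in WT and 194 in Cd226-/- cells, and Cx3cr1, the fractalkine receptor, at 247, 78.5 and 113. Chemokine and cytokine genes were 16 higher and 2 lower of 26 in WT (0.79) and 12 higher and 3 lower in Cd226-/- (0.43). Over all members 14 of 27 were higher and 2 lower in WT (0.60), and 12 higher and 7 lower in Cd226-/- (0.27). Of all genes in marker-free cells, 11.4% were higher and 17.3% lower in WT, and 11.7% and 15.9% in Cd226-/-. Over all members the shares were 12.9% and 17.7%, and 12.8% and 17.5%. Il1b, an inflammatory cytokine, stood at 900, 2160 and 2354, and Ccl2, which recruits monocytes, at 571, 1624 and 932. Between the genotypes, 0 of 24 chemokine and cytokine genes were higher and 7 lower in Cd226-/- marker-free cells (median −0.13), beside 5.67% and 5.11% of all genes, namely Ccl2, Ccl5, Ccl7, Ccl8, Ccl12, Cxcl3 and Cxcl13. Most WT UMIs of Cxcl13 lay in 1 cell, as given at the end. Ccl2 was 1.74-fold (1.58 to 1.92) higher in WT than in Cd226-/- cells, and Ccl7, another ligand of CCR2, 2.11-fold (1.92 to 2.32). Saa3, an acute-phase protein, stood at 3.47, 316 and 492. Genes of dissociation stress moved with the same groups. In marker-free cells 5 of 19 were higher and 1 lower in WT than in naive skin (0.32), beside 11.4% and 17.3% of all genes. In Cd226-/- 3 were higher and 0 lower than in naive skin (0.03), beside 11.7% and 15.9%. Between the genotypes 0 of 18 were higher and 4 lower in Cd226-/- than in WT (−0.26), beside 5.67% and 5.11%. They summed to 22935 CPM in naive, 27796 in WT and 23752 in Cd226-/- cells. RNA of other cells moved with these groups too. The neutrophil list summed to 1127 in naive, 660 in WT and 3436 in Cd226-/- marker-free cells, and 676 of the 1322 S100a9 UMIs in Cd226-/- cells lay in 1 cell. The keratinocyte list summed to 5, 17 and 46, and the melanocyte list to 1, 107 and 4. Fibroblast markers outside the rule summed to 56, 284 and 180, the same order as Ccl2. The part of these in the results was not tested.

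Members were also set against resident-type C1q cells of the same library, a contrast the rule itself used, so the values are a description. Cells with a UMI of the Langerhans or dendritic genes were left out of the marker-free members but not out of the resident-type cells. Dendritic cell markers summed to 127 CPM in naive, 162 in WT and 204 in Cd226-/- marker-free members. In resident-type cells they summed to 390, 878 and 811. The part of this unequal filter in the values was not tested. Class II sums of marker-free members and resident-type cells were 30218 and 17818 CPM in naive, 35899 and 29179 in WT, and 28600 and 19826 in Cd226-/- skin. Members were the higher in all 3 libraries. Trem2 was higher in marker-free members as well, with 554 and 299, 120 and 84.9, and 257 and 151. Over all members, where neither side was filtered, Trem2 lay above resident-type cells only in naive skin. Its order in treated skin thus depended on leaving such cells out of the members only. Type I interferon sums ran the other way, with 4730 and 6951, 3091 and 3581, and 2747 and 4610. Apoe stood at 29324.5 in members and 25976 in resident-type cells of naive skin, but at 13485 and 21197 in WT and 15024 and 21711 in Cd226-/- skin, so its order turned between naive and treated libraries. Resident-type cells had medians of 10782, 6099 and 7179 UMIs in naive, WT and Cd226-/- skin, against 7686, 4315 and 5432.5 in marker-free members.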

How the data were processed

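The authors deposited UMI counts, not normalized, for 31053 genes and 2 antibody tags in each called cell; Cell Ranger 3.1.0 and mm10 are named for them, per the submitters' processing notes. Barcodes with under 500 genes, under 1000 gene UMIs or over 10% mitochondrial UMIs were left out, and members were taken by the UMI rule given in the report with no doublet removal. Members, gene lists and the split by 7 marker genes were chosen with earlier results of these data known. UMIs were summed over the members of a library and given per 1000000 of their total (CPM). Levels have exact Poisson, shares exact binomial and ratios exact conditional binomial 95% intervals, none of which covers differences between mice. No test was run, since every group is 1 library. Genes with at least 50 UMIs over both libraries were counted as higher or lower past 1.5-fold, and 3 counts stand in for a 0. For shares, cells were thinned to 2000 UMIs (seed 20). Genes were picked for naming as the 4 with the highest level in a list and the 2 highest and 2 lowest by ratio per comparison. The 8 highest and lowest over all genes by the interval bound nearest to equality were added. Not all of the genes picked this way appear in the text. Other named genes are list members, described for their function or count and chosen after their values were seen. Counting and intervals were tested on simulated Poisson sums only. These leave out the unevenness between cells, so the check does not cover genes whose UMIs lie in few cells. The closing section gives 16 other settings and 6 that were added later. Gene coordinates are those of GENCODE on GRCm38 and promoter sequences those of RefSeq. List genes not in the files were Ifi30, Cxcl11 and Mx2. Scrublet ran in scanpy 1.11.5 (expected rate 0.06). Tables and intervals used pandas 2.3.3, scipy 1.17.1 and numpy 2.4.6 under Python 3.11.15, and figures matplotlib 3.10.9. Some genes of the lists are counted but not reported here by name.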

Additional observations from a re-analysis of the deposited data

Results flagged for a closer look

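Over all members, Cxcl9 was 2.13 times the naive level in WT and 0.235 times in Cd226-/-, so with all cells counted the treated libraries lay on opposite sides of naive. Once the richest cell of each library was dropped, the ratios were 13.2 in WT and 1.19 in Cd226-/-, and Cd226-/- no longer lay below naive. In thinned cells Cxcl9 was seen in 0.871% of naive, 4.81% of WT and 1.64% of Cd226-/- members. Mmp12, a macrophage elastase, had ratios of 3.27 and 0.417, on opposite sides of naive. The differences between these ratios were not tested, and both share the naive library. Single cells carried much of the signal: 149 naive Cxcl9 UMIs lay in 1 cell, as did 162 of the 396 WT and 121 of the 358 naive Mmp12 UMIs. In the naive CD45- library, which no comparison used, 6 cells passed the rule, with a median of 2573.5 UMIs and 19 C1q UMIs per cell.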

How the results depend on the processing

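No paired analysis was possible because each group has 1 library, and none could be left out. The counts below are of genes past the fold. Except for the setting without the 7-gene cells, the share of all genes past the fold under each other setting is not given. Those counts therefore show only how far a count moved. Without the 7-gene cells the IFN-γ genes lower in Cd226-/- than WT were 2 of 9 instead of 7 of 15, without cells with 5 or more Mfge8 UMIs 3 of 10, with 200 UMIs 1 of 5, with 10 UMIs 14 of 26 and past 2-fold 3. Lipid-associated genes higher in Cd226-/- than WT were 5, 8 without Ccr2 or Ly6c2 cells and 3 past 2-fold. Class II genes higher in WT than naive were 6, 3 when cells weighed the same, 3 with median-of-ratios scaling, 0 without the 7-gene cells, 0 without Mfge8 cells and 1 past 2-fold; for Cd226-/- they were 5, with 0, 0 and 1 for the last 3 settings. Type I genes lower than naive were 26 in WT and 29 in Cd226-/-, 17 and 19 past 2-fold, and 13 of 16 and 10 of 17 without Ccr2 or Ly6c2 cells. Lysosomal genes lower in Cd226-/- were 12, then 5, 6 and 5 without 7-gene cells, past 2-fold and without Mfge8 cells. In marker-free cells, leaving out Ccr2 or Ly6c2 cells moved IFN-γ genes from 2 to 1 of 3, class II in WT from 0 to 1 of 7, type I from 18 to 7 and from 24 to 4, and lysosomal genes in Cd226-/- from 5 to 2. Fewer genes were tested in these cells.

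The share of C1q cells low for the 3 genes in WT, Cd226-/- and naive skin was 40.6%, 32.2% and 29.3% thinned to 2000 UMIs, 36.2%, 29.0% and 18.7% with a limit of 1 UMI, 54.7%, 48.1% and 44.6% with 8, and 41.2%, 33.3% and 29.7% with 20 C1q UMIs. With limits per 10000 UMIs it was 41.3% and 34.6% in WT and Cd226-/-, and without 7-gene cells 38.5% and 31.5%. WT stayed above Cd226-/- in each of these, and Cd226-/- above naive except without 7-gene cells, where naive was 34.0%.

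Reversed log2 ratios were as follows, and the cause was not tested. Without 7-gene cells, Ciita −0.33 and Cd40 −0.055 in WT against naive, and H2-Aa −0.14, Cd74 −0.12, Cd40 −1.57 and Gbp2 0.15 in Cd226-/- against naive. Without Mfge8 cells, Ciita −0.067 in WT, and in Cd226-/- H2-Aa −0.042, Cd74 −0.060, Cd40 −1.27, Gbp2 0.14 and the class II median −0.022. Without Ccr2 or Ly6c2 cells, Mmp12 0.91 in Cd226-/- against WT, Retnla −2.27 and Mmp12 −2.11 in WT and Isg15 0.31 in Cd226-/- against naive; in marker-free cells Irf7 0.18, Retnla −2.91 and Mmp12 −0.92 in WT, and Irf7 0.85, Il1b −0.20 and Retnla −1.84 in Cd226-/-. Without the richest cell, Fabp4 was 0.43 in marker-free Cd226-/- against WT cells. Of all other values, 1445 single values and 149 counts or shares kept their direction and size class and 525 single values moved without reversing. The alternatives on Mfge8, Ccr2 or Ly6c2, doublets, single cells, cell weight and scaling in marker-free cells were added after seeing the data. Between 598603 and 3745405 UMIs in marker-free members limit what could be seen in genes of few UMIs.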

Other observations

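Treated marker-positive members were higher than naive ones for Ccl22 and Ccl17, genes known in migratory dendritic cells. Ccl22, a chemokine for CCR4-bearing T cells, stood at 78.8 CPM in naive, 1633 in WT and 842 in Cd226-/- marker-positive cells, and Ccl17, which binds the same receptor, at 6.31, 300.0 and 298. Mki67 or Top2a, cell-cycle genes, had a UMI in 28.6%, 39.0% and 31.2% of marker-positive cells and in 7.87%, 8.40% and 4.55% of marker-free cells. These shares were not thinned, and marker-positive cells were the deeper ones in each library. The whole cell-cycle list summed to 515, 328 and 370 CPM in marker-positive and 171, 246 and 141 in marker-free cells. The part of depth in these shares was not tested. Across marker-positive cells, class II and type I interferon UMIs per 10000 had a Spearman correlation of −0.60 in WT (82 cells), −0.42 in Cd226-/- (77 cells) and −0.39 in naive skin (35 cells). Class II ran against the IFN-γ list too, at −0.62, −0.38 and −0.27, and against the lipid-associated list at −0.32, −0.13 and −0.20. The relation was thus not particular to type I genes. Each set of cells shares a library, and class II correlated with depth at −0.35, −0.36 and 0.04. Some genes with high ratios lay in single cells: in WT marker-free members 128 of 134 UMIs of Cxcl13, a chemokine for B cells, were in 1 cell.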
